A study of Mus musculus with 96 samples.

Results

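Small proteins, with coding sequences of at most 100 codons, were examined in ribosome footprints and mRNA of mouse neural tube. Members were chosen by 2 values, the length of the coding sequence in the gene's most covered transcript (at most 303 nt with the stop codon) and the number of wild-type footprints on it (at least 100). This gave 244 genes of 22422 with a coding count. Of 881 genes with so short a coding sequence, 619 had fewer footprints, and 18 were left out by name as histones, cytosolic ribosomal proteins, globins or mitochondrially encoded genes. The wild-type footprint minimum means that levels in wild-type footprints are a description, with no test. The same wild-type counts also enter the genotype comparisons that use footprints, so members were not chosen independently of those comparisons. Neural tubes of embryos at E11.5 were compared between wild type (C3HeB) and heterozygotes of the same strain carrying the Xs-J allele of Eif3c (C3HeB/Eif3cXs-J/+), called mutant here. Eif3c encodes a subunit of eIF3, the complex that brings the small ribosomal subunit to mRNA. The allele is carried by every cell of the mutant embryos and is not limited to the neural tube. Each genotype had 3 pools of dissociated cells, and each pool gave an RNA library (poly(A) mRNA) and a library of ribosome-protected fragments, or footprints, so that there were 12 libraries in 4 groups of 3. The labels' protocols describe neural tubes taken litter by litter and do not state whether each pool is its own litter. The p-values below therefore reflect only how far the pools spread, which may be technical.

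Proteins of this size are often built of a single membrane-spanning helix or a single folded domain. Many are structural or regulatory parts of large machines, such as the respiratory chain, the translocases of the mitochondrial membranes, the spliceosome and the heterotrimeric G proteins. Others work alone, such as the thymosins, which bind actin monomers. Short coding sequences also occur in the 5′ leaders of longer mRNAs and in transcripts first annotated as noncoding, and ribosome profiling is a usual way to see them read.

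The coding sequences that the results below turn on are given first, 5′ to 3′ as DNA, from the GENCODE vM21 transcripts of mm10. Capitals mark the window in which reads were counted, and lower case marks the first 15 and the last 5 codons, which the coding counts leave out. Tmsb4x, encoding thymosin beta 4, is shown as the member with most footprints (X chromosome, transcript from 167207093 to 167209315, minus strand), and its annotated frame holds a further ATG at codon 7.
Tmsb4x: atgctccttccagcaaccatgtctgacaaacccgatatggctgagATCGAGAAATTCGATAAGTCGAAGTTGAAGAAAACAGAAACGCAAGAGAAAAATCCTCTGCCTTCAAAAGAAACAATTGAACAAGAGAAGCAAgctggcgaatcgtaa
Ost4, a subunit of oligosaccharyltransferase, is shown as the shortest member that has a gene name other than a number (chromosome 5, 30905885 to 30907788, minus strand).
Ost4: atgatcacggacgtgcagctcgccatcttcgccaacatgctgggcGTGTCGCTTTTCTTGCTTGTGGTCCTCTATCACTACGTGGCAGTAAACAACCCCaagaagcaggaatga
Uqcr11, a subunit of respiratory complex III (chromosome 10, 80402997 to 80406830, minus strand), Tomm7, a subunit of the outer mitochondrial membrane translocase (chromosome 5, 23838944 to 23844161, minus strand), and Snrpf, a core protein of the spliceosomal small ribonucleoproteins (chromosome 10, 93583029 to 93589706, minus strand), had more footprints in the mutant.
Uqcr11: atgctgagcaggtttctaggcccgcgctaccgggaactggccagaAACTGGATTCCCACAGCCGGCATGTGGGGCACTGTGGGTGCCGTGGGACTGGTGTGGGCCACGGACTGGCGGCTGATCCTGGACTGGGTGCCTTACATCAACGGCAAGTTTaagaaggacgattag
Tomm7: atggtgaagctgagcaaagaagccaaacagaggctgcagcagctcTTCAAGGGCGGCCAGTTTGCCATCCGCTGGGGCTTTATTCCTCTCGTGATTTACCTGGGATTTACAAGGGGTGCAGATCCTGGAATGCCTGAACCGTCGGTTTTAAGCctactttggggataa
Snrpf: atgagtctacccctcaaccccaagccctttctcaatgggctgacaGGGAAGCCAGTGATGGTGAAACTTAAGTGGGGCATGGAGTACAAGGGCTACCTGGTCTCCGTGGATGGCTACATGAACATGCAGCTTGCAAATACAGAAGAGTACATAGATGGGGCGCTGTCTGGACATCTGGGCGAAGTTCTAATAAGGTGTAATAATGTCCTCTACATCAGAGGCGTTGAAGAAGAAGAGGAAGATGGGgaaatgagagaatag
Tma7, named for its association with the translation machinery (chromosome 9, 109074568 to 109082587, minus strand), had less RNA in the mutant.
Tma7: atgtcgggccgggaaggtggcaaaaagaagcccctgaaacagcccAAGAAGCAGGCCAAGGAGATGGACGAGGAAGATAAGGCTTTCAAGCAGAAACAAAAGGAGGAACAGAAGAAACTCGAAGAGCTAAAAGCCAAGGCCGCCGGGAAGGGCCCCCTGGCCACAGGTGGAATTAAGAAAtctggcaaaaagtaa
Selenow, encoding selenoprotein W (chromosome 7, 15917208 to 15922402, minus strand), is shown for the TGA in frame at codon 13, which is read as selenocysteine.
Selenow: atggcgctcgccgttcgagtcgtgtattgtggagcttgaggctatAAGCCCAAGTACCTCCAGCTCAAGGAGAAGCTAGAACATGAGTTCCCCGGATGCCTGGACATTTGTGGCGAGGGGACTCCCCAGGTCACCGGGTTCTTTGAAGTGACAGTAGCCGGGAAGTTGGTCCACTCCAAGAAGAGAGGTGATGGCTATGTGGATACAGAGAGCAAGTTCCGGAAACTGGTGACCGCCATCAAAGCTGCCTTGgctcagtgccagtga
Tmsb15b2, a thymosin beta 15 gene (X chromosome, 136955265 to 136975497, minus strand), is shown because its coding sequence has 0 differences from that of Tmsb15l, another member, so that reads cannot be assigned to either.
Tmsb15b2: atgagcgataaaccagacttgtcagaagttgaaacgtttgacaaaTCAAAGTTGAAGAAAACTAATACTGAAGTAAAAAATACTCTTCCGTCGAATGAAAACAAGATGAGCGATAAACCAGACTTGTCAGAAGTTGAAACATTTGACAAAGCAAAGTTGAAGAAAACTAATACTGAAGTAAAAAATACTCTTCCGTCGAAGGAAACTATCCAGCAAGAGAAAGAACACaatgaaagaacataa

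Checked against the annotation, most members were what the length says. A complete frame from ATG to stop was found for 219 of the 244, 13 could not be checked because the counted transcript and the reference transcript differ in length, and 12 lacked a start, a stop or a whole number of codons. The members ran from 23 to 100 codons with a median of 80. Because 20 codons are left out, the counted window was much shorter, with a median of 61 codons and a smallest window of 4. In 18 members the most covered transcript is annotated as a target of nonsense-mediated decay, in 19 the gene has a longer coding transcript of over 303 nt, and 50 carry a number in place of a name. Short sequences are also easily shared. Of 230 windows checked, 106 held at least 1 stretch of 30 nt that also occurs in a transcript of another gene, 30 were covered by such stretches whole, and 124 held none. In 16 members the other gene was itself a member, and Timm10b and Gm45799 both had 3064 wild-type footprints. For reads that match several genes, no counting rule is stated in the labels. The clone-named AC140267.1 and AL731706.2, both shared along their whole window, lie inside transcripts of Mief1 and Mkks, and were chosen for mention after their values were seen. Members with a complete frame and no shared stretch numbered 122.

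Near the length limit, Sec61g and Timm10b (303 nt) were inside with 202 and 3064 wild-type footprints, while Cript, Eif4ebp3, Eny2 and Ptms (306 nt) were outside with 4691, 397, 7411 and 27491. Near the footprint minimum, Smim3, Hrk, Lst1 and S100a1 were inside with 100, 102, 103 and 105 footprints, and Cd52, Dynlrb2, Smim27 and Fxyd1 were outside with 99, 98, 92 and 92.

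Coding counts per library ran from 7200322 to 13137407 in RNA and from 11310843 to 59202834 in footprints. Eif3c itself checked the genotype, at 496 ± 22.1 CPM (coding counts scaled to a common library total, SD, n = 3) in wild-type RNA and 296 ± 5.88 in mutant RNA. All 8 markers of neural progenitors and all 8 of neurons were detected. Summed over the 8 neuronal markers, RNA was 5305 to 5415 CPM in wild type and 4213 to 4949 in the mutant, and footprints were 8718 to 9507 and 7249 to 8389. The 8 erythroid markers summed to 6446 CPM in RNA of mutant pool 1 against 2731 to 3400 in the other 5 pools, and to 14181 in its footprints against 8069 to 9862. In the same pool the endothelial markers (432 CPM in RNA against 258 to 305) also stood apart. Mesenchymal markers summed to 1791 footprint CPM there against 933 to 1207 elsewhere, though in RNA the 6 pools overlapped (484 to 868). In footprints mutant pool 1 was also highest for neural crest and ganglia (237 CPM against 184 to 199), macrophages (75.3 against 52.5 to 70.8) and surface epithelium (8.20 against 3.11 to 4.57). In RNA these lists ran over the 6 pools from 138 to 158 CPM (neural crest and ganglia), 30.1 to 51.8 (macrophages) and 2.30 to 4.44 (surface epithelium, with Krt14 at 0 in all libraries). The part of these cell types in the results below was not tested, except where a value without pool 1 is given.

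Footprint levels of the members spanned several orders of magnitude and were led by a single gene. Tmsb4x reached 1698 ± 44.5 footprint CPM in wild type and 1452 ± 204 in the mutant (SD, n = 3). It held 18.3 to 18.9% of all member counts in wild-type footprints, 15.1 to 17.4% in mutant footprints and 10.2 to 11.48% in RNA. Per kilobase of counted window, Tmsb4x had 15616 mutant footprint CPM, against a median of 90.1 over the 244 members and a lowest value of 3.66. Next came Nrep, a small protein of neurons and regenerating tissue, at 2225 on the same scale, then Atp5e, the epsilon subunit of ATP synthase, at 1307, and Ndufa4, a subunit of the terminal oxidase, at 996. Cox7a2 (954), Atp5mpl of ATP synthase (871), Dynll1, a dynein light chain (855), Cd24a, a heavily glycosylated surface protein of young neurons (846), and Cox6b1 (814) followed. Together the members held 0.552 to 0.617% of coding counts in RNA and 0.820 to 0.965% in footprints.

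**Figure D1:**
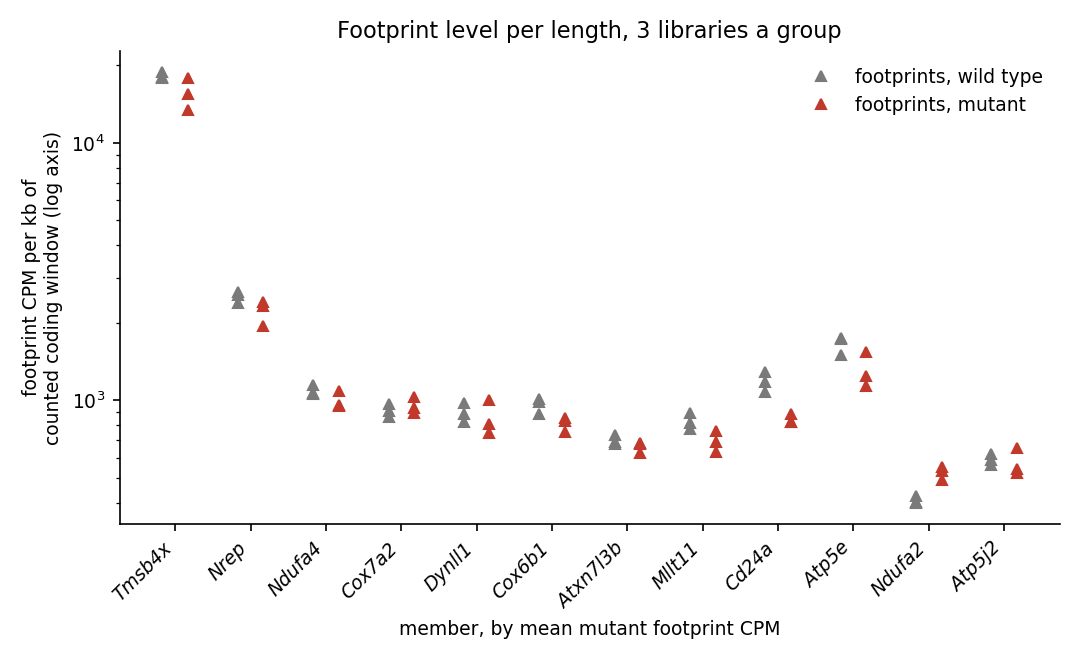
Footprint CPM per kilobase of counted window, on a log axis, for the 12 members with the highest mean mutant footprint CPM. Each point is a library, with 3 wild-type and 3 mutant libraries per gene. Tmsb4x stands above all others.

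Grouped by function, subunits and assembly factors of oxidative phosphorylation were the largest named group, with 34 members, and Ndufa4 had 206 ± 8.58 wild-type and 188 ± 14.4 mutant footprint CPM. Mitochondrial import and other mitochondrial proteins followed with 17 members, among them Minos1 of the cristae junction complex (97.8 ± 4.7 and 96.6 ± 5.4 CPM) and Tomm6 of the outer membrane translocase (76.5 ± 1.9 and 94.0 ± 11). The 10 actin and microtubule regulators included Tmsb4x, Dynll1 (188 ± 16 and 180 ± 28 CPM) and Brk1, a component of the WAVE complex (35.9 ± 3.3 and 28.5 ± 4.7). Of 7 gamma subunits of G proteins, Gng2 was highest (88.1 ± 5.9 and 78.0 ± 5.1). The RNA-binding group of 12 was led by Sem1 (101 ± 11 and 99.6 ± 14), Sf3b5 (68.8 ± 5.2 and 84.0 ± 12) and Lsm8 (74.2 ± 4.6 and 73.8 ± 7.0). Sem1, better known from the proteasome, Serf1 and Tma7 were placed in it by their symbols. All groups were formed from gene symbols, so a group can hold members with another function. Ubiquitin-like modifiers were few but well covered, with Ubl5 at 97.7 ± 5.5 and 89.5 ± 5.9 CPM and Nedd8 at 93.2 ± 6.5 and 93.6 ± 9.7. Secreted and metal-binding proteins were low, with a median of 13.1 mutant footprint CPM per kilobase. Among them Cxcl12, a chemokine, had 21.0 ± 0.30 and 23.5 ± 2.2 CPM.

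Comparing genotypes, footprints on 4 members rose in the mutant and on 0 fell. These were Uqcr11, Hmgn1, Tomm7 and Snrpf, 4 of 244 tested with edgeR (quasi-likelihood, p adjusted by Benjamini-Hochberg over all genes), against 0.253% of all 13423 genes tested. The wild-type footprints in this test are also those that chose the members. The median log2 change of the members was -0.02, beside 0.01 over all genes. Unadjusted p was under 0.05 for 58 members (23.8%), close to the share over all genes (22.8%). The direction of the calls depended on the tool and the filter: DESeq2 called 12 higher and 9 lower, limma-voom 6 and 4, and edgeR without the low-count filter 7 and 7. Over all genes the same fits called 436 higher and 384 lower (6.11%), 86 and 44 (0.968%), and 138 and 105 (1.38%). Among the 122 members with a complete frame and no shared stretch, 0 were called, with 24 at an unadjusted p under 0.05. Uqcr11 and Tomm7 share 28.0 and 39.2% of their windows with 1 and 2 other genes, Snrpf shares its whole window with 4, and Hmgn1 was among those that could not be checked.

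Uqcr11 had 12, 15 and 14 footprint CPM in wild-type pools 1, 2 and 3 and 27.6, 25.3 and 24.9 in the mutant pools. All 3 mutant libraries lay above all wild-type libraries. The log2 change was 0.93 ± 0.11 (SE), with an adjusted p of 0.0157 (edgeR). Its RNA went the other way in value, at 12.4, 10.99 and 10.98 CPM in wild type and 11.1, 6.2 and 8.3 in the mutant, a log2 change of -0.40 ± 0.19 that did not pass (edgeR adjusted p = 0.305).

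Hmgn1 encodes a nucleosome-binding protein (chromosome 16, 96120618 to 96127729, minus strand). Its footprints were 37.2, 47.7 and 35.2 CPM in wild type and 73.0, 73.4 and 73.0 in the mutant, with no overlap. The log2 change was 0.88 ± 0.11, with an edgeR adjusted p of 0.0161. Its RNA overlapped between genotypes, at 58.4, 52.8 and 57.1 CPM against 71.5, 53.2 and 60.3.

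Tomm7 had 39.8, 44.1 and 39.6 footprint CPM in wild type and 59.7, 63.2 and 61.8 in the mutant, again without overlap, for a log2 change of 0.58 ± 0.08 (edgeR adjusted p = 0.0197). In RNA it had 42.6, 34.7 and 39.8 CPM against 44.7, 30.9 and 39.6, and the genotypes overlapped.

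Snrpf had 10.6, 10.7 and 8.4 footprint CPM in wild type and 17.03, 16.6 and 17.7 in the mutant. The groups did not overlap, and the log2 change of 0.79 ± 0.13 passed narrowly (edgeR adjusted p = 0.0494). When the whole coding sequence was counted, the log2 change of Snrpf was 0.30 with an adjusted p of 0.173 (edgeR).

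**Figure D2:**
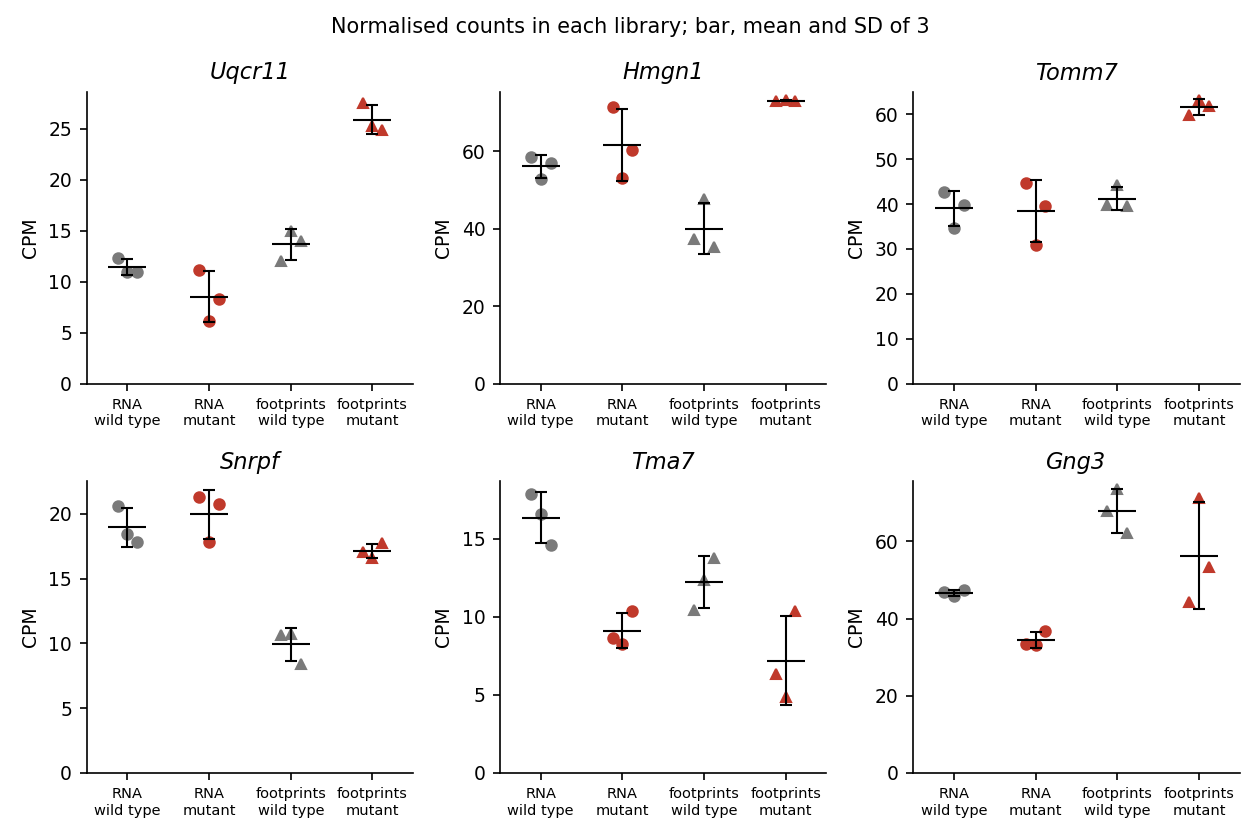
CPM of the 6 members that passed a test between genotypes, in each of the 12 libraries. Points are libraries, and bars give the mean and SD of 3. In Uqcr11, Hmgn1, Tomm7 and Snrpf the mutant footprints (red triangles) lie above the wild type while the RNA (circles) overlaps, and in Tma7 and Gng3 the mutant RNA lies below the wild type.

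Members with lower footprints came close to the threshold without passing it. Serf1, which encodes a small basic protein, had 59.9, 59.9 and 62.7 CPM in wild type and 30.1, 38.1 and 42.9 in the mutant (log2 change -0.71 ± 0.12, edgeR adjusted p = 0.0501). Cd24a had 220.2, 183.8 and 201.6 CPM against 141.1, 151.5 and 141.5 (-0.48 ± 0.08, edgeR adjusted p = 0.0511). Tmsb15b2 and Tmsb15l, which cannot be separated, had values of -0.92 and -0.83 (adjusted p = 0.0511 and 0.0521). In Serf1, Cd24a and both thymosin genes the genotypes did not overlap. The lowest value among members with a gene name other than a number was that of Hopx, a small homeodomain protein, at 7.4, 6.4 and 5.8 footprint CPM in wild type and 0.9, 4.3 and 1.9 in the mutant (-1.47 ± 0.36, edgeR adjusted p = 0.0888). Npy, the neuropeptide Y precursor, had -1.32 ± 0.30 (edgeR adjusted p = 0.0794). On the positive side Cox8a of cytochrome oxidase (0.51 ± 0.10, edgeR adjusted p = 0.0649) and Ndufa2 of complex I (0.36 ± 0.07, edgeR adjusted p = 0.0686) had non-overlapping groups and did not pass.

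The number of footprint calls rested on single pools. Without any of wild-type pools 1, 2 or 3 the members called were 0, 1 and 0, and without mutant pool 3 they were 0. Without mutant pool 2 they were 41 (27 higher and 14 lower), when 2333 of all genes were called, and without mutant pool 1 they were 4 (3 higher and 1 lower). Hmgn1 passed in 3 of the 6 fits that left out a pool, Uqcr11 and Tomm7 in 2 and Snrpf in 1, and the log2 change of each was above 0 in all 6.

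In RNA, 2 members fell and 0 rose. They were Tma7 and Gng3, 2 of the 236 members tested, against 0.388% of all 13406 genes, and 20 members (8.47%) had an unadjusted p under 0.05, against 17.5% of all genes. The median log2 change was 0.00, beside 0.01 over all genes. The filter on low counts left out 8 members, A730046J19Rik, Cxcl14, Gm12728, Gm17349, Lst1, Ndufa4l2, S100a1 and S100a6. Of the members with a complete frame and no shared stretch, 0 of 116 tested were called, with 10 at an unadjusted p under 0.05.

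Tma7 had 17.8, 16.6 and 14.6 RNA CPM in wild type and 8.7, 8.3 and 10.4 in the mutant. All mutant libraries were lower, and the log2 change was -0.85 ± 0.14 (edgeR adjusted p = 0.0365). Its footprints were also lower in every mutant pool, at 10.4, 12.4 and 13.8 CPM against 6.3, 4.8 and 10.3, the highest of them close to the lowest wild-type pool, without passing (log2 change -0.74 ± 0.24, edgeR adjusted p = 0.131). The window of Tma7 shares 71.7% of its length with 8 other genes. The share outside the window was higher in the mutant. The first and last codons held 14.3% of its coding RNA counts in wild type and 23.9% in the mutant, and the 5′ leader held 16.4 to 21.6% of leader and coding counts in wild-type RNA and 27.4 to 30.9% in mutant RNA. Counted over the whole coding sequence, the RNA change was -0.69 with an edgeR adjusted p of 0.0507.

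Gng3 encodes a G protein gamma subunit of neurons (chromosome 19, 8836933 to 8839194, minus strand). It had 46.8, 45.8 and 47.4 RNA CPM in wild type and 33.3, 33.2 and 36.9 in the mutant, with no overlap and a log2 change of -0.44 ± 0.08 (edgeR adjusted p = 0.0498). Footprints of Gng3 overlapped, at 67.9, 73.5 and 62.1 CPM against 44.2, 71.3 and 53.5. The summed neuronal markers were lower in mutant RNA as well (4213 to 4949 against 5305 to 5415 CPM). In bulk tissue fewer cells of a type and less RNA per cell cannot be told apart.

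These RNA calls also depended on single pools. Leaving out any wild-type pool or mutant pool 3 gave 0 members, leaving out mutant pool 1 gave 1, and leaving out mutant pool 2 gave 11 (3 higher and 8 lower), when 1528 of all genes were called. Hopx was the member with the lowest RNA value, at 3.8, 3.8 and 5.1 CPM in wild type and 0.4, 2.8 and 1.5 in the mutant (log2 change -1.51 ± 0.45, edgeR adjusted p = 0.117), and passed without mutant pool 2 (-2.26, adjusted p = 0.00552). Gng5, another gamma subunit, had the smallest p of the positive values, at 27.4, 28.9 and 25.2 CPM against 40.1, 32.4 and 34.2 (0.39 ± 0.10, edgeR adjusted p = 0.0954).

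**Figure D3:**
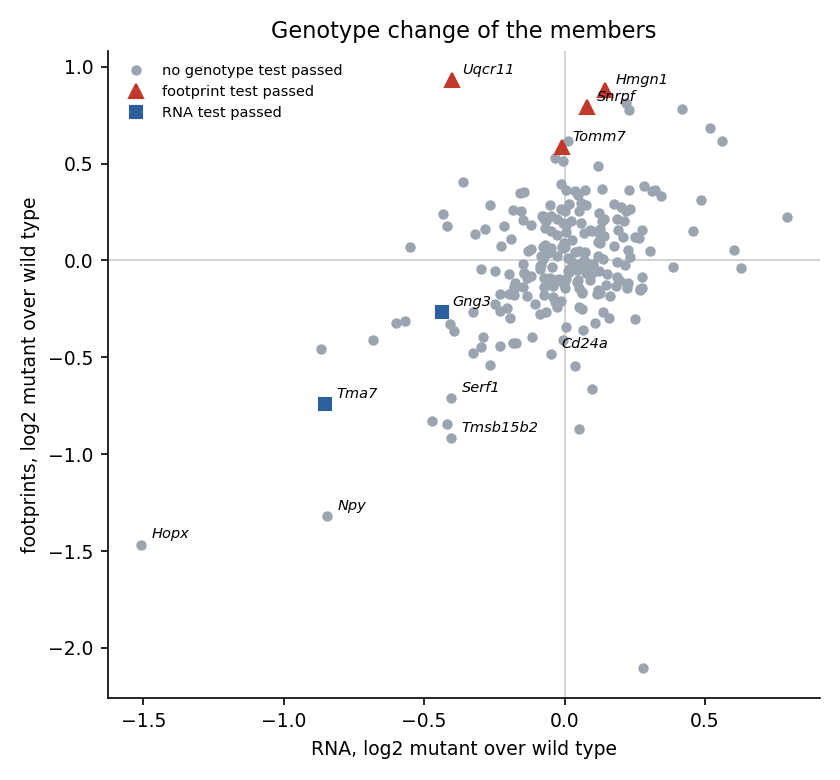
Log2 change between mutant and wild type in RNA (x axis) and footprints (y axis), for the 236 members tested in both. Triangles passed the footprint test and squares the RNA test. The 4 footprint calls lie above 0 on the y axis with RNA changes from -0.40 to 0.15, and Tma7, Hopx and Npy are low on both axes.

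The calls were spread over the functional groups. Uqcr11 was 1 of 34 oxidative phosphorylation members called in footprints, Tomm7 1 of 17 in the mitochondrial import group, Hmgn1 1 of 10 in the chromatin and cell cycle group, and Snrpf 1 of 12 in the RNA-binding group, which also held Tma7 as its RNA call. Gng3 was 1 of 7 gamma subunits called in RNA. Group medians of the footprint change were small. The lowest among groups of 10 or more was that of the actin and microtubule regulators, at -0.25 with 9 of 10 values below 0, and 0 passed. Its members ranged from -0.92 (Tmsb15b2) to 0.69. Tmsb15b2 and Tmsb15l, which cannot be separated, both counted among the values below 0. Pcp4 and Pcp4l1 were placed in this group by their symbols. The chromatin and cell cycle group had the highest, at 0.29 with 7 of 10 above 0, where Banf1, which bridges DNA at the nuclear envelope, had 0.49 ± 0.11 (edgeR adjusted p = 0.0789) and Anapc11, a subunit of the anaphase-promoting complex, 0.35 ± 0.09 (edgeR adjusted p = 0.0881). The mitochondrial import group had a median of 0.17 with 12 of 17 above 0. In the oxidative phosphorylation group values were evenly divided, 15 above and 19 below 0, with a median of -0.02. In RNA the medians of these 4 groups ran up to 0.14, that of the chromatin and cell cycle group.

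Translational efficiency, the ratio of footprints to RNA, was tested in a single edgeR model of the 12 libraries, as a genotype-by-assay interaction. Of 244 members, 0 passed with edgeR, and 0.0% of all 13877 genes did. Unadjusted p was under 0.05 for 24 members (9.84%), the same share as over all genes (9.84%). DESeq2 called 3 members, all higher, among 20 of all genes (16 higher and 4 lower), and limma-voom called 0 of either. Both libraries of a pool were made from 1 cell suspension, and with the pool as a block edgeR called 7 members, 6 higher and 1 lower, against 0.814% of all genes. The 6 were Uqcr11 (log2 change 1.36 ± 0.19), 1500011B03Rik (0.79 ± 0.14), Hmgn1 (0.76 ± 0.13), Snrpf (0.73 ± 0.14), Tomm7 (0.62 ± 0.14) and Cox8a (0.55 ± 0.10). Their adjusted p-values in that fit ran from 0.00696 for Uqcr11 to 0.0481 for Tomm7. Cd24a was the member with a lower ratio, at -0.41 ± 0.09 (edgeR adjusted p = 0.0497). Without the block the same genes had values of 1.35, 0.78, 0.75, 0.73, 0.61, 0.53 and -0.42, with edgeR adjusted p from 0.196 to 0.430. The footprints that entered these ratios are those of the footprint comparison, so the 2 sets of calls are not independent. Over the whole coding sequence, without the block, the change in efficiency was 0.15 for Cox8a and 0.18 for Snrpf (edgeR adjusted p = 0.767 and 0.747). The members' median was 0.02, as over all genes.

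1500011B03Rik, which has a complete frame of 72 codons and shares no stretch with another gene, had 14.8, 14.1 and 15.3 RNA CPM in wild type and 11.96, 10.2 and 12.1 in the mutant. Its footprints were 15.7, 16.7 and 18.2 CPM against 24.0, 20.5 and 22.5. Neither assay overlapped between genotypes, RNA being lower and footprints higher in the mutant, though neither passed alone (edgeR adjusted p = 0.166 and 0.101). Cox6b1 was lower in footprints in every mutant pool, at 203.2, 198.4 and 178.2 CPM against 151.4, 167.5 and 171.8, while its RNA overlapped, and its change in efficiency of -0.28 ± 0.10 did not pass (edgeR adjusted p = 0.432).

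Within the mutant libraries, whose footprints did not enter the minimum, footprints were set against RNA gene by gene. Genes that pass a footprint minimum in wild type are also likelier to have footprints in the mutant, so the members are best read beside longer genes with the same minimum. Of 242 members tested, 137 had more footprints than RNA by edgeR's test, against 32.5% of all 13532 genes, and 29 had fewer, against 33.0%. The median log2 ratio was 0.55 in members and 0.03 over all genes. In the RNA comparison 236 members passed the low-count filter, so some of the 242 could enter through their footprints, which favours a high ratio. With at least 100 counts required in each group, 119 of 192 members were higher and 18 lower, at a median of 0.54. Over all genes that filter gave 3920 higher and 3885 lower of 11515. Genes just above the length limit were alike in value. In genes of 304 to 603 nt, 719 of 1209 were higher and 141 lower, with a median of 0.56, and in genes over 603 nt, 3455 of 11309 were higher and 3825 lower, with a median of 0.00. The wild-type median of the members was 0.48, as a value with no test. By length the mutant medians were 0.59 for 26 members of up to 60 codons, 0.53 for 101 of 61 to 80 and 0.56 for 115 tested of 81 to 100. Leaving out mutant pool 3 lowered the count to 85 higher and 22 lower, at a median of 0.48. Over all genes the same fit called 3124 higher and 3487 lower of 13620. The ratio is relative to all coding counts of a library and rests on counted windows, so its level is not an absolute rate.

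Genes named Gm and a number were left out of the named lists, and with other numbered genes they ran from -2.07 to 4.45. Among the remaining members that passed, the highest were Uqcr11 (log2 ratio 1.69 ± 0.19), A730046J19Rik (1.64 ± 0.35), Fxyd6, a regulator of the sodium pump (1.39 ± 0.11), Cxcl12 (1.37 ± 0.13), Rnasek (1.37 ± 0.13) and Nop10 of the H/ACA ribonucleoproteins (1.35 ± 0.12). A730046J19Rik did not pass the low-count filter in the RNA comparison and entered here through its footprints, which favours a high ratio. It passed in 2 of 3 fits that left out a mutant pool, with edgeR adjusted p up to 0.0505. Nop10 had 25.6, 22.2 and 23.2 RNA CPM and 62.3, 49.1 and 56.3 footprint CPM in the mutant pools. Its wild-type values were alike, at 21.3, 19.0 and 23.1 against 56.1, 49.7 and 53.0. Tmsb4x (1.35 ± 0.11), Atxn7l3b (1.33 ± 0.08) and Nrep (1.26 ± 0.10), picked for their many mutant footprints, were high too. Those footprints are also the numerator of the ratio, so the pick favours high ratios.

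Lowest among the same members was Snhg11, annotated first as a host of small nucleolar RNAs, with 14.3, 26.2 and 26.1 RNA CPM and 1.1, 3.2 and 3.0 footprint CPM in the mutant (-3.05 ± 0.35). Dexi (-1.92 ± 0.25), Cdc26 of the anaphase-promoting complex (-1.86 ± 0.24), Sec61g of the endoplasmic reticulum translocon (-1.61 ± 0.22), Selenow (-1.44 ± 0.08) and Pkig, an inhibitor of protein kinase A (-1.38 ± 0.25), followed. All 12 of these high and low members passed edgeR's test, with adjusted p from 8.97e-07 (Selenow) to 0.00227 (A730046J19Rik).

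By group, beside 56.6% of all members tested and 32.5% of all genes, the counts of higher members were as follows, and differences between groups were not tested. All 4 ubiquitin-like and protein degradation members passed as higher, as did 14 of 17 in the group of mitochondrial import and other mitochondrial proteins. Of the oxidative phosphorylation members 21 of 34 did, and of the small membrane proteins 13 of 20. So did 5 of 7 gamma subunits and 7 of 10 chromatin and cell cycle members. Higher too were 8 of 14 endoplasmic reticulum and secretion members, 2 of 3 mitochondrial ribosomal proteins, 6 of 12 secreted and metal-binding proteins and 24 of 46 ungrouped members. Fewer were higher among numbered genes (22 of 50, with 10 lower), actin and microtubule regulators (4 of 10) and RNA polymerase and transcription factor subunits (1 of 3). In the RNA comparison 10 secreted, 47 numbered and 33 oxidative phosphorylation members passed the low-count filter, so others here could enter through their footprints. The RNA-binding group was divided, with 6 higher and 2 lower of 12 and a median of 0.13. Within it Sf3b5 (1.24 ± 0.13) and Lsm8 (1.03 ± 0.10) were high, while Snrpe, another core protein of the small ribonucleoproteins, had -0.14 ± 0.13 and did not pass (edgeR adjusted p = 0.335). AC140267.1 and AL731706.2 had log2 ratios of 0.17 and 0.75, of which only the second passed (edgeR adjusted p = 0.442 and 0.00283), and their reads are shared with Mief1 and Mkks.

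A pair of microproteins from transcripts once taken for noncoding was also read, and was chosen for mention after its values were seen. Mtln, a peptide of the inner mitochondrial membrane, had 7.06, 6.80 and 7.24 footprint CPM in wild type and 8.92, 6.80 and 11.3 in the mutant, and the genotypes overlapped (log2 change 0.36 ± 0.17, edgeR adjusted p = 0.247). Nbdy, a peptide of processing bodies, had 12.3, 11.8 and 10.9 against 10.9, 9.83 and 11.9, also overlapping (-0.09 ± 0.12, edgeR adjusted p = 0.664). Both windows share no stretch with another gene, and in the mutant both had more footprints than RNA, by 0.77 ± 0.22 and 0.56 ± 0.16 on the log2 scale (edgeR adjusted p = 0.0100 and 0.0113).

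**Figure D4:**
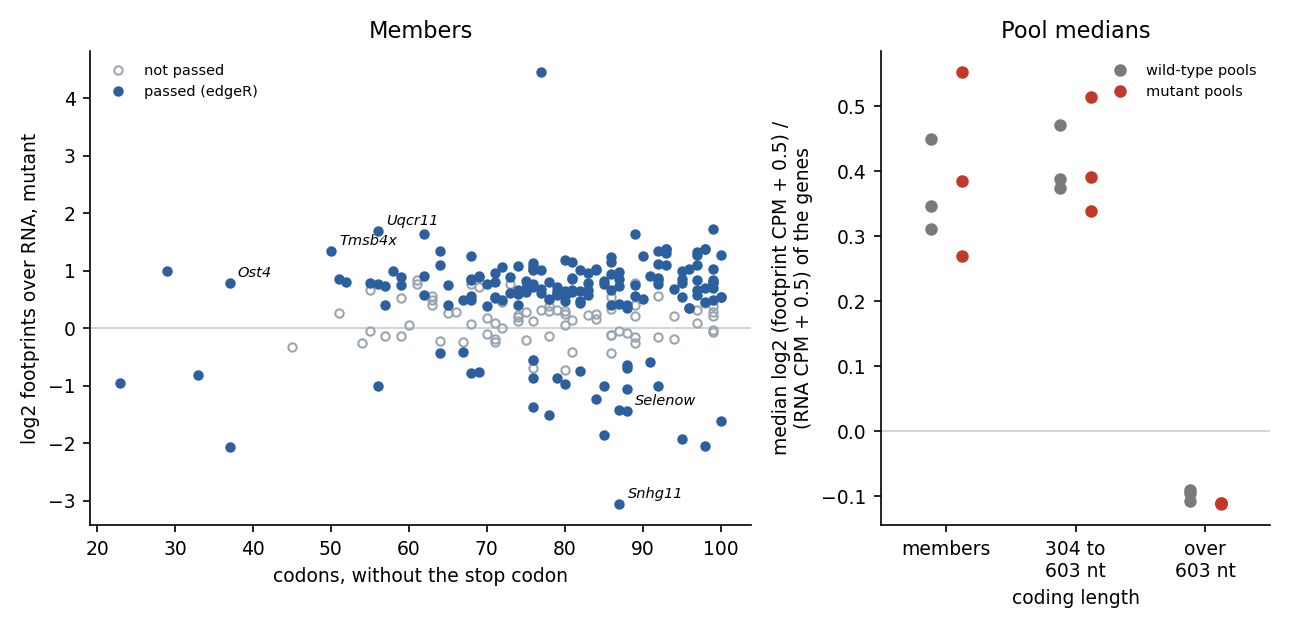
Left, log2 footprints over RNA in the mutant libraries against codons for the 242 members tested, with filled points for those that passed edgeR's test. Right, the median over genes of log2 (footprint CPM + 0.5) / (RNA CPM + 0.5) in each of 6 pools for members, genes of 304 to 603 nt and genes over 603 nt. On the right RNA and footprints were scaled separately and on the left together, so 0 is not the same point in the 2 panels. In all 6 pools the medians of both short classes lie above that of the long class.

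The value of Selenow depended on the counted window. Of its coding footprints, 72.1 to 75.2% in wild type and 73.6 to 75.8% in the mutant lay outside the counted window, in the first 15 or the last 5 codons, against 13.5 to 16.1% of its RNA in all 6 RNA libraries. The TGA at codon 13 lies in the left-out start. Over the whole coding sequence the mutant log2 ratio of Selenow was 0.27 (edgeR adjusted p = 0.00868), the opposite sign of the windowed value. For comparison, the median member had 27.2 to 28.6% of coding footprints outside the window in wild type, 29.4 to 32.8% in the mutant and 19.5 to 20.1% of RNA. Selenok, whose TGA is near its 3′ end, had a windowed log2 ratio of -0.18 that did not pass (edgeR adjusted p = 0.224).

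The window also bears on the genotype calls. Snrpf had 79.2% of its coding footprints outside the window over the 6 libraries, with 81.4% in wild type and 74.0% in the mutant, so its test rested on 1086 wild-type and 660 mutant counts. Uqcr11 had 0 of 2414 coding footprints outside the window, which allows a share of up to 0.124%, although 9.14% of its wild-type and 12.3% of its mutant coding RNA counts lay there. These limits cover counting error only. The 5′ leader of Uqcr11 held 47.0 to 56.6% of leader and coding footprints in wild type and 34.4 to 40.4% in the mutant, without overlap. Cox8a had 57.0 to 62.9% of coding footprints outside the window in wild type and 43.3 to 51.4% in the mutant, without overlap, and its footprint change over the whole coding sequence was 0.14 (edgeR adjusted p = 0.386) against 0.51 in the window. In Hmgn1 and Tomm7 the share outside the window was close in both assays, at 20.6 and 23.6% of mutant footprints and 22.2 and 27.1% of mutant RNA.

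**Figure D5:**
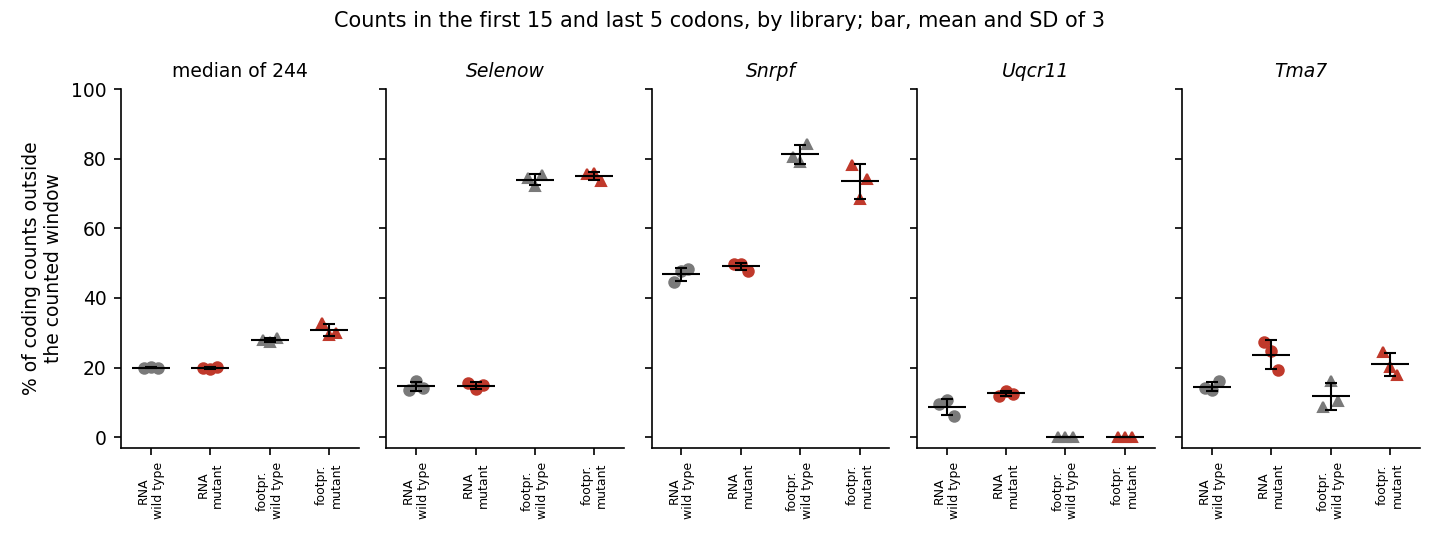
Percentage of coding counts that lie outside the counted window, in each library, for the median of the 244 members and for 4 named members. Bars give the mean and SD of 3 libraries. Selenow and Snrpf have most of their footprints outside the window, Uqcr11 has none there, and the share of Tma7 is higher in the mutant in both assays.

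Members had a median 5′ leader of 136 nt and a median 3′ untranslated region of 540 nt. With the same footprint minimum these were 139.5 and 730 nt in genes of 304 to 603 nt, and 179 and 1079 nt in genes over 603 nt. Of all transcript counts of the members, the leader took 26.4 to 26.7% of footprints in wild type and 28.3 to 30.7% in the mutant. In RNA it took 9.49 to 10.8%. Genes of 304 to 603 nt had 23.3 to 23.7% and 23.9 to 27.3% of footprints there, and longer genes 10.94 to 11.04% and 10.98 to 13.2%. These are shares of counts and are not scaled to the length of the leader or of the coding sequence. Enho, which encodes a secreted peptide, was among the highest, with 80.2 to 82.7% of leader and coding footprints in the leader in wild type and 79.6 to 87.3% in the mutant. Cdc42se2 had 71.4 to 76.3% and 72.2 to 73.9%. In Serf1 the leader share rose in value from 39.2 to 42.1% in wild type to 48.1 to 53.5% in the mutant, and in Atxn7l3b from 43.6 to 46.6% to 51.4 to 54.6%, both without overlap and neither tested. They were not the only ones. Dph3 had 27.4 to 34.6% and 44.9 to 49.2%, and Atp5k 2.57 to 6.43% and 16.2 to 18.3%. Uqcr11 and Mrps21 fell without overlap, and the members with such changes were not counted. Enho, Cdc42se2, Dph3, Atp5k, Selenok and Atp5mpl were chosen for mention after their values were seen.

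Around the start codon, a purine at position -3 was about as frequent in members (88.8% of 214 with a checked start) as in genes over 603 nt (85.6% of 10569). A G at position +4 was found in 45.3% of members, against 54.9% of genes of 304 to 603 nt and 52.9% of longer genes. The coding sequences had a median GC content of 52.8%, beside 53.1% in the longer genes. These are descriptions of the chosen transcripts.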

How the data were processed

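Neural tubes were measured by ribosome profiling and RNA-seq in 96 lane samples, 12 libraries in 2 runs of 4 lanes. Per the submitters' processing notes, cutadapt, STAR, bedtools and mm10 were used; those notes list no versions. Values were deposited as raw counts by transcript region and lane. Lanes and runs were summed, leaving out 4 lanes of mutant footprint pool 1 with counts on at most 3 chromosomes. Each gene was represented by the transcript with most coding counts (GENCODE vM21). Counts without a gene symbol were 0.327% of coding counts.

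RNA, footprints and their ratio were tested across all genes with edgeR 4.0.16 (R 4.3.3, quasi-likelihood, TMM, filterByExpr with a minimum count of 10 and a minimum total of 15, Benjamini-Hochberg, threshold 0.05), with DESeq2 1.42.0 and limma 3.58.1 (voom) as alternatives. SE was taken as |log2 change| / sqrt(F). Tables and figures used Python 3.11.15, pandas 2.3.3 and Matplotlib 3.10.9. The tests were checked on simulated data with 200 genes changed by a log2 of 1. They recovered 85% of these in RNA, 88.5% in footprints, 77.5% in efficiency and 82.5% in footprints against RNA. Unchanged genes made up 9.57, 4.84, 6.06 and 5.17% of the calls in the same order. Simulated libraries were drawn independently, without deviations shared within a pool. Depth was 7200322 to 13137407 coding counts in RNA and 11310843 to 59202834 in footprints, and more counts give smaller counting error.

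Members and lists were chosen with earlier results of these data known. Named were members called between genotypes, the 6 of smallest p in each direction, the 12 of highest mutant footprint CPM, the 5 shortest and those nearest each threshold, the 6 highest and 6 lowest mutant ratios that passed, and up to 4 per functional group; predicted genes with a number were mostly left unnamed. Per the labels' protocols, 1 suspension of cells gave both libraries of a pool, and their deviations correlated at 0.210, 0.225 and 0.321 in wild type and 0.574, 0.495 and 0.275 in the mutant. Markers of endothelium, mesenchyme, neural crest, surface epithelium and macrophages were also summed. Other alternatives were size factors by relative log expression, the low-count filter, the whole coding sequence, all lanes, another transcript, and each pool left out.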

Additional observations from a re-analysis of the deposited data

How the results depend on the processing

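The number of members called was sensitive to the processing. In RNA it was 2, and 1 with relative log expression size factors, 4 with no low-count filter, 1 with a stricter filter, 0 over the whole coding sequence and 1 on the transcript with most RNA counts. Leaving out a pool gave 0 to 11. In that order, 0.388, 0.321, 2.65, 0.315, 0.163 and 0.298% of all genes were called, and 0.00736 to 11.3% without a pool. In footprints it was 4, all higher, and 21 with DESeq2 (12 higher, 9 lower), 10 under limma-voom (6 and 4), 14 when low counts were kept (7 and 7), 7 over the whole coding sequence (5 and 2) and 0 with all lanes summed. Leaving out a pool gave 0 to 41. The shares of all genes were 0.253, 6.11, 0.968, 1.38, 0.436 and 0.067% in the same order, and 0.0593 to 17.1% without a pool. In translational efficiency it was 0, 3 with DESeq2 and 7 with the pool as a replicate block, against 0.0, 0.144 and 0.814% of all genes. For footprints against RNA in the mutant it was 166 (137 higher, 29 lower), 107 to 151 without a pool, 187 over the whole coding sequence (168 and 19, median 0.76 against 0.55) and 183 with the pool as a replicate block (151 and 32). As shares of members tested these were 68.6, 44.0 to 62.4, 77.0 and 75.6%. Over all genes the shares were 65.5, 48.5 to 60.6, 65.8 and 75.2%. Selenow reversed over the whole coding sequence (0.27). The cause was not tested.

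Of 660 alternative values for 48 gene and comparison pairs, 569 kept direction and side of the threshold, 53 newly passed, 37 no longer passed and 1 reversed. Pools with the same number in both genotypes correlated weakly in RNA (0.105, 0.049 and 0.064, against -0.094 to 0.026 for pools of different number). In footprints pools with the same number did not pair (-0.093, -0.097 and -0.049, against -0.036 to 0.112). With that number as a replicate block, 2 members were called in RNA, all lower, against 1.46% of all genes. In footprints 4 were called, 3 higher and 1 lower, against 0.283%. There Serf1 newly passed as lower (-0.73, edgeR adjusted p = 0.0327) and Snrpf no longer passed (0.0701). Among the 122 members with a complete frame and no shared stretch, that fit called 1, as lower. Mutant footprint libraries (11310843 to 14842437 coding counts) were shallower than those of wild type, and the effect of depth or window length on the calls was not tested.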
